A study of Mus musculus with 6 samples.

Results

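Genes of the cell cycle were examined as targets of miRNAs in AGO2 CLASH, an assay that cross-links AGO2 to its RNAs, ligates the bound miRNA to its target fragment and sequences the joined molecule. A hybrid read thus gives both the miRNA and the target gene. Members were chosen by symbol: the cyclins Ccna to Ccnl, the Cdk kinases, the Cdkn inhibitors, the E2f and Rbl families, the Cdc genes, Lats1, Lats2, Rb1, Wee1 and Rcc2. Of 3200 genes with a hybrid, 39 were members, and they held 236 of 15680 reads (1.51%). Each of these reads was a distinct hybrid sequence seen 1 time in its library, and they fell into 119 miRNA-gene pairs with 59 miRNAs. The cells were P19, a mouse embryonic carcinoma line. WT cells carried both Dicer1 alleles intact, and HM cells carried a frameshift truncation (loss of function) on 1 allele and the E1797G hotspot change in the RNase IIIb domain on the other, both placed by CRISPR at the endogenous locus. HM was derived by a second round of editing from a heterozygous knockout line, and the study's methods describe silencing of a miRNA cluster on chromosome 12 in HM as a clonal effect, so genotype and clone cannot be told apart. There were 3 biological replicates of each genotype. Of the member reads, 3 came from that cluster.

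WT libraries held 1621 to 2331 hybrid reads and HM libraries 1661 to 5341. The pluripotent miRNAs miR-290 to miR-295, miR-302 and miR-367 checked the labelled cell type: 12 of 14 hairpins were detected, with 34.5 to 38.7% of hybrids in WT and 56.9 to 59.1% in HM, while 2 of 12 miRNAs of other cell types were detected, with 14 reads in all. A count of 0 allows 3 reads, which is 0.0562 to 0.185% of a library. Intervals and floors cover counting error only, since PCR duplicates cannot be told from molecules. Over the counts of miRNAs, WT library 3 differed from WT library 1 (chi-square p = 0.00307) and from WT library 2 (p = 1.61e-05), while the other pairs of libraries within a genotype did not pass the test, so calls are also given without WT library 3.

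Dicer cuts both arms of a miRNA hairpin. Its RNase IIIb domain releases the 5p-miRNA and its RNase IIIa domain the 3p-miRNA. A miRNA recognises a target mainly through its seed, near its 5′ end, and lowers the stability and translation of the mRNA. The cell cycle is driven by cyclins that activate CDKs and by activator E2Fs, and it is held back by CDK inhibitors, pocket proteins and kinases such as WEE1 and the Hippo kinases LATS1 and LATS2. Pluripotent cells have a short G1 phase, and the miR-290 and miR-302 families of these cells are known for targeting inhibitors of the G1 to S transition.

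The miRNAs that account for most member hybrids are shown first, since the results turn on which arm and which seed they have. Sequences are the mature RNAs of RefSeq (GRCm38.p6), written 5′ to 3′, with bases 2 to 8, the seed, in capitals. Those of miR-20b-5p and miR-106a-5p share a seed, as do those of miR-367-3p and miR-25-3p. A further leading miRNA, miR-302a-3p with 14 member reads, had no RefSeq entry and is not shown.
miR-290a-5p: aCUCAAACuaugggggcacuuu
miR-302b-3p: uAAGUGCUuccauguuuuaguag
miR-302d-3p: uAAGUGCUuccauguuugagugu
miR-20b-5p: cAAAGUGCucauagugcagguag
miR-106a-5p: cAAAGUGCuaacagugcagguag
miR-367-3p: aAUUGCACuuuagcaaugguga
miR-25-3p: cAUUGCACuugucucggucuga
miR-130a-3p: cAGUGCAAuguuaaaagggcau
miR-18a-5p: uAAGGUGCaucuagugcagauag

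Target fragments of a gene that overlapped were joined into a site, and 105 sites were found, of which 8 held 4 or more hybrids. These 8 are shown, followed by the most frequent site of Cdkn1a, E2f1, Cdk2 and Wee1, to let the pairing of seed and target be read. Each line gives the stretch that most fragments of a site hold, in the letters of the deposited reads, all from 3′ UTRs. Capitals mark the complement of bases 2 to 8, 2 to 7 or 3 to 8 of the miRNA most often ligated there. Cdc42 site 1 and Ccnd1 site 2 hold no such match and have no capitals.
Rcc2 site 1: caaagtgtttccctcaatGTTTGAttaaa
Ccne2 site 1: taagaaagtCACTTTattgc
Ccnd1 site 1: ctgctaccgcacaacGCACTTTcttt
Ccnd1 site 2: tatttacagatgcccttttt
Ccnd3 site 1: ccacagtgTGCACTaaggggttgca
E2f3 site 1: tgagaagatGTGCAATcaggt
Ccnj site 1: ggaccttgtAGCACTTggaa
Cdc42 site 1: ccagagccctttctgcacagc
Cdkn1a site 1: ctcagacctgaatAGCACTTtggaa
E2f1 site 1: tgggctctaactGCACTTTtggtgtcct
Cdk2 site 1: ttgccatgtGCACTTtggga
Wee1 site 1: accttgtgaattTGCTGCTatttt

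Among the members, drivers of the cycle held most of the reads and brakes held few. Genes outside the symbol rule are not in these counts. Of those, the antiproliferative Tob2 and Btg1 had 23 and 13 reads, and Mycn had 21. By roles written from general knowledge, 21 drivers had 165 reads, 7 brakes had 20 reads, and 11 further members, whose products act mainly outside the cycle or have no settled place in it, had 51 reads. The brakes had 3, 4 and 3 reads in the WT libraries, given here and below in the order 1 to 3, against 1, 4 and 5 in the HM libraries. Brakes made up 8.97% ± 2.00 of member hybrids in WT and 8.06% ± 4.18 in HM (mean ± SD, n = 3), a difference smaller than the spread between libraries. Of 82 genes with a role in the list, 43 had no hybrid: 13 of 20 brakes, 14 of 35 drivers and 16 of 27 others. Among them were the brakes Rb1, Rbl1, Rbl2 and Lats1 and the drivers Cdk4, Ccna2, Ccnb2 and Cdc20. A count of 0 allows up to 3 reads.

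All brakes among the members had 6 reads or fewer, too few for the test between genotypes, so their values are descriptions. Wee1, the kinase that holds CDK1 inactive, had 1, 1 and 2 reads in the WT libraries and 0 in each HM library, and its reads came from miR-15b-5p, miR-497a-5p, miR-290a-5p and miR-302b-3p, with 1 read each. Scaled to all hybrids, Wee1 was 2.22-fold higher in WT against a floor of 3 reads over the HM group. This ratio takes the WT count as exact. Its site with a match to the seed of miR-15b-5p was held by miR-15b-5p and miR-497a-5p. Cdkn1a, which encodes the CDK inhibitor p21, had 0, 1 and 1 reads in WT against 0, 1 and 1 in HM. All of its hybrids were with miR-302 family members (miR-302d-3p in WT, miR-302a-3p and miR-302b-3p in HM), and 3 of the 4 lay on 1 site with a match to bases 2 to 8 of the family. E2f7, an atypical E2F that represses transcription, had 0, 2 and 0 reads in WT against 1, 2 and 1 in HM, the latter including 3 reads of miR-302d-3p. Lats2, a Hippo kinase and the member of that pathway with a hybrid, had 1 read, in HM library 3 with miR-25-3p. Cdkn1b, which encodes p27, had 1 WT read, and Cdkn2d, an INK4 inhibitor, had 1 HM read. Brake hybrids by 5p-miRNAs numbered 5 in WT and 0 in HM.

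Across all genes, 344 had at least 10 reads and were tested (edgeR quasi-likelihood test, Benjamini-Hochberg adjusted p under 0.05, libraries scaled to all hybrids). Of the 39 members 7 were tested, with 149 of the 236 reads, and 32 had too few reads. Hybrids fell in HM for 2 of the 7, Rcc2 and Ccne2, and rose for 0. Rcc2 was listed by its own symbol, and members were chosen with earlier results of these data known. Counts and medians over the members are therefore descriptions. Over all tested genes, 10.8% were called lower and 5.81% higher, and the median log2 fold change was 0.27, against -0.71 for the 7 members. This split depends on the scale: scaled to 3p hybrids, 69 of the 344 genes were called, 68 lower and 1 higher, the median was -0.75, and 2 members were called, both lower. At an unadjusted p under 0.05 the count of members was also 2, beside 78 of all 344 tested genes (22.7%). Without WT library 3, Rcc2 was called (adjusted p = 0.000128, edgeR) and Ccne2 was not. For the same 2 members the values in HM were all under those in WT, as for 14.2% of all tested genes, and for 30.8% of tested genes the genotypes did not overlap in either direction. A hybrid count follows the levels of the miRNA and of the mRNA, the number of cells and the RNA in each, and these cannot be told apart here.

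**Figure D1:**
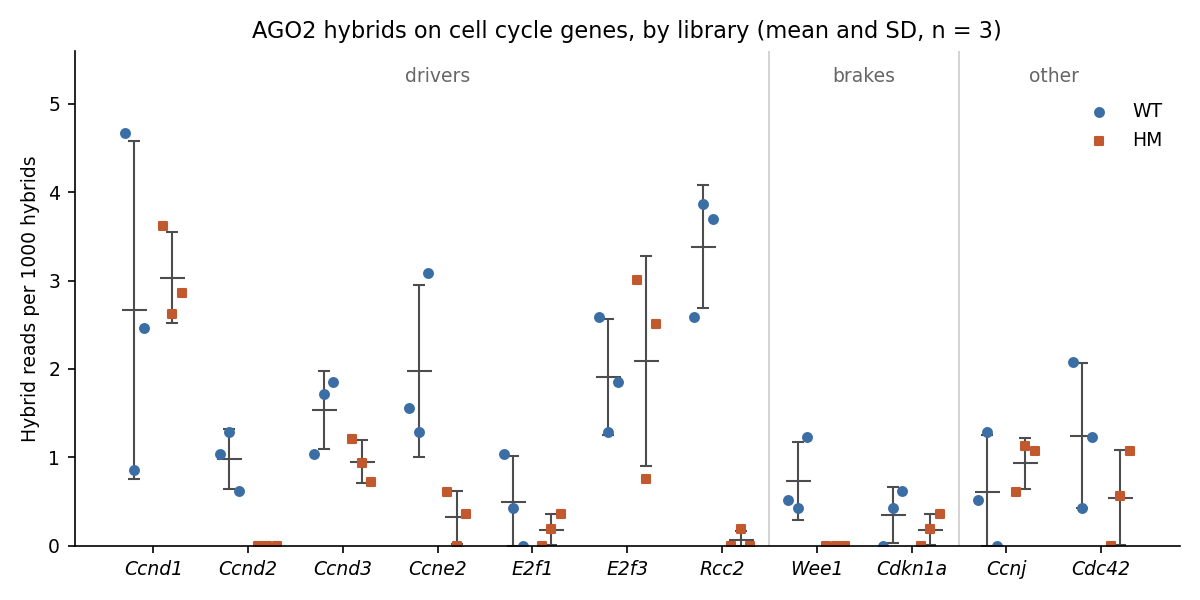
Hybrid reads per 1000 hybrids (vertical axis) in each library for the 7 tested members and 4 others with fewer reads (Ccnd2, E2f1, Wee1 and Cdkn1a). Points are libraries, circles WT and squares HM, and bars give the mean ± SD with the lower end cut at 0; the Rcc2 points lie between 2.59 and 3.86 in WT and between 0 and 0.187 in HM, while those of Ccnd1, E2f3, Ccnj and Cdc42 overlap.

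Rcc2, a regulator of the mitotic spindle and of Rac1, had the lowest log2 fold change of the 7. The WT libraries gave 5, 9 and 6 reads and the HM libraries 0, 1 and 0. Every WT library lay above every HM library. This was 3.38 ± 0.691 per 1000 hybrids in WT and 0.0624 ± 0.108 in HM (mean ± SD, n = 3). The log2 fold change was -4.53 with a standard error of 0.94 (edgeR adjusted p = 7.24e-05). From the summed reads, 20 and 1, the ratio was 33.3 with an exact 95% counting interval of 5.33 to 1381. The call was kept in all 14 alternative fits, with adjusted p between 4.78e-08 and 0.0169.

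Nearly all Rcc2 hybrids were with a single 5p-miRNA. The 5p strand of the first hairpin of the miR-290 cluster, miR-290a-5p, gave 4, 9 and 5 of the WT reads and 0 of the HM reads. The other 3 reads were 2 of miR-29b-3p, 1 in each genotype, and 1 of miR-411-5p in WT. As a pair, scaled to the hybrids of 3p-miRNAs, miR-290a-5p with Rcc2 had a log2 fold change of -6.75 (edgeR adjusted p = 4.99e-09, among 140 pairs tested). Against a floor of 3 reads over the HM group the pair was 20.8-fold higher in WT on the scale of 3p hybrids. On the scale of all hybrids it was 10.0-fold higher. Both ratios take the WT count as exact. All 18 reads lay on Rcc2 site 1 and had 18 different target fragments. Each held the complement of bases 3 to 8 of the miRNA, a match that leaves out its base 2, and in 16 of them a complement of bases 17 to 22 was also present. Over all genes miR-290a-5p had 78 reads in WT and 0 in HM, so Rcc2 held 18 of the 78, more than any other member.

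Of the members, 3 pairs had at least 10 reads and were tested, and 1 was called, in the lower direction, where 13.6% of all tested pairs were called lower and 2.14% higher. Scaled to all hybrids, 33 of the 140 tested pairs were called, 13 lower and 20 higher. The second pair was miR-302b-3p with Ccnd1, with 0 reads in each WT library and 4, 5 and 2 in the HM libraries. The libraries did not overlap, which was so for 9.29% of tested pairs in that direction and 23.6% in either. Scaled to 3p hybrids its adjusted p was 0.179, and scaled to all hybrids it was 0.0346 (edgeR), so the call depends on the scale, and the other fits lay up to 0.59. On these scales, against a floor of 3 reads over the WT group, the ratios were 1.06 and 2.20. They take the HM count as exact, so they are not lower limits. Over all genes miR-302b-3p had 7.85% ± 0.977 of hybrids in WT and 20.8% ± 0.896 in HM (mean ± SD, n = 3), given without a test. The third pair, miR-367-3p with E2f3, had 2, 0 and 1 reads in WT against 1, 3 and 4 in HM, with an adjusted p of 0.936 and a sign that changed with the scale.

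Ccne2, a cyclin E that activates CDK2 at the start of S phase, was the second member with fewer hybrids in HM. It had 3, 3 and 5 reads in WT against 1, 0 and 1 in HM. The libraries did not overlap, with 1.98 ± 0.970 per 1000 hybrids in WT and 0.320 ± 0.303 in HM (mean ± SD, n = 3). The log2 fold change was -2.92 with a standard error of 0.99 (edgeR adjusted p = 0.0249). From the summed reads the ratio was 9.16, with an exact 95% counting interval of 2.00 to 85.1. The call was lost without HM library 2 (log2 fold change -1.93, adjusted p = 0.324), without WT library 1 (adjusted p = 0.0556) or WT library 3 (adjusted p = 0.179), with DESeq2 (adjusted p = 0.209) and with no minimum of reads (adjusted p = 0.156), while the direction was kept in all fits run.

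In WT, 10 of the 11 Ccne2 hybrids were with miRNAs of the miR-17 type clusters (those of miR-17, miR-106a and miR-106b), and miR-106a-5p had 4 of them and miR-106b-5p 2. Of these, 9 lay on site 1, and all 9 were with 5p-miRNAs that share the seed of miR-17. The site had 0 reads in HM, where a count of 0 allows up to 3 reads. The 2 HM reads of Ccne2 were with miR-25-3p and miR-302d-5p, 1 read each. Ccne1, the other cyclin E, had 1 read in each genotype.

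Ccnd1, a D cyclin that activates CDK4 and CDK6 in G1, was the member with most reads. It had 9, 2 and 4 reads in WT against 6, 14 and 8 in HM. The genotypes overlapped, at 2.66 ± 1.91 and 3.03 ± 0.517 per 1000 hybrids (mean ± SD, n = 3). The log2 fold change was 0.17 with a standard error of 0.55 (edgeR adjusted p = 0.879), and the exact 95% interval of the HM to WT ratio of summed reads ran from 0.578 to 2.26. Scaled to 3p hybrids the sign turned, to -0.87.

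The arms of the miRNAs on Ccnd1 were counted next. In WT 11 of 15 reads were with 5p-miRNAs (73.3%), and in HM 5 of 28 (17.9%), all 5 of them with miR-20b-5p. Reads of the miR-302 cluster, which includes miR-367, were 3 in WT and 19 in HM. Ccnd1 site 1, which matches the seed of the miR-17 family, had 7 WT and 8 HM reads. In WT these were 3 of miR-106a-5p, 2 of miR-20b-5p, 1 of miR-17-5p and 1 of miR-302a-3p, and in HM they were 5 of miR-20b-5p, 2 of miR-302b-3p and 1 of miR-302d-3p. The 6 bases at the start of this match are also the complement of bases 2 to 7 of miR-302. Ccnd1 site 2 had 2 WT and 8 HM reads, all of the miR-302 family and none with a match to the seed. A further site had 3 reads of miR-302b-3p, all in HM library 2, and a match to bases 2 to 8. On Ccnd1 miR-16-5p had 3 reads, all in WT. None of these differences at single sites was tested, since only genes and pairs were fitted.

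**Figure D2:**
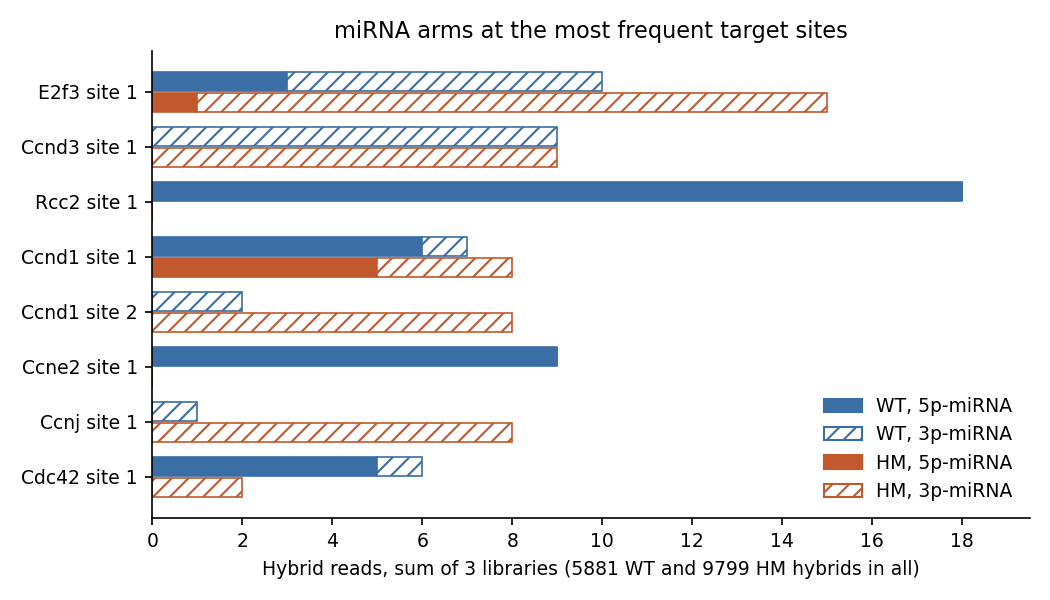
Hybrid reads summed over 3 libraries (horizontal axis) at the 8 sites with at least 4 hybrids, WT above and HM below for each site, with 5p-miRNAs as filled and 3p-miRNAs as hatched parts. Rcc2 site 1 and Ccne2 site 1 have 18 and 9 WT reads, all of 5p-miRNAs, and 0 in HM; Ccnd3 site 1 has 9 reads of 3p-miRNAs in each.

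The other D cyclins had fewer reads than Ccnd1. Ccnd2 had 2, 3 and 1 reads in WT against 0 in each HM library. Against the floor over the HM group it had 3.33-fold more hybrids per library total in WT, with the WT count taken as exact. Ccnd2 had too few reads to be tested. Of its 6 reads, 3 were of miR-290a-5p, all on 1 site, and 1 each of miR-17-5p, miR-20b-5p and miR-302a-3p. None of the 6 held a match to the seed of its miRNA. Ccnd3 had 2, 4 and 3 reads in WT against 2, 5 and 2 in HM, which overlapped. Its log2 fold change was -0.71 with a standard error of 0.76 (edgeR adjusted p = 0.575). All 18 Ccnd3 reads were of 3p-miRNAs on a single site, led by miR-130a-3p (4 in WT and 3 in HM) and miR-130b-3p (3 and 2), whose seed it matches.

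E2f3, an activator E2F that turns on genes of S phase, had 5, 3 and 3 reads in WT against 5, 4 and 7 in HM. The libraries overlapped, at 1.91 ± 0.655 and 2.09 ± 1.19 per 1000 hybrids (mean ± SD, n = 3). The log2 fold change was -0.12 with a standard error of 0.66 (edgeR adjusted p = 0.926), and its sign turned in 4 of the alternative fits. Of 27 hybrids, 25 lay on site 1, in 20 different fragments, and all 25 held at least 6 bases of the match to their miRNA's seed, which these miRNAs share. At this site miR-25-3p had 4 reads in WT and 5 in HM, miR-367-3p 3 and 8, miR-32-5p 3 and 1, and miR-92a-3p 0 and 1. E2f1, another activator E2F, had 2, 1 and 0 reads in WT against 0, 1 and 1 in HM. The 3 WT reads were of miR-20b-5p (2) and miR-20a-5p (1) on a site that matches their seed, and the HM reads were of miR-103-3p and miR-320-3p elsewhere.

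The 2 tested members outside these roles were not called. Ccnj, an atypical cyclin, had 1, 3 and 0 reads in WT against 1, 6 and 3 in HM, with a log2 fold change of 0.55 (edgeR adjusted p = 0.76) that became -0.45 when scaled to 3p hybrids. Its reads of miR-302b-3p were 1 in WT and 7 in HM, and 8 HM reads lay on site 1, which matches bases 2 to 8 of that miRNA. Cdc42, a small GTPase of cell polarity, had 4, 1 and 2 reads in WT against 0, 3 and 3 in HM, with a log2 fold change of -0.92 (edgeR adjusted p = 0.555). In WT 6 of its 7 reads were of miR-18a-5p, which had 3, 1 and 2 in the WT libraries and 0 in HM, and in HM its 6 reads came from 6 miRNAs, all 3p. The kinases that partner the cyclins had few reads: Cdk6 had 0, 0 and 1 in WT and 0, 7 and 1 in HM, so that 1 library held 7 of its 9 reads. Cdk2 had 0 in WT and 0, 3 and 1 in HM, with 3 of these on a site matching bases 2 to 7 of miR-302 and miR-291a-3p.

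The arm of the miRNAs on a gene in WT was set beside the change of the gene. Of the 7 tested members, Rcc2, Ccne2 and Cdc42 had 19 of 20, 10 of 11 and 6 of 7 WT reads from 5p-miRNAs, and they had the lowest log2 fold changes of the members. Ccnd1 had 73.3%, Ccnj 50.0%, E2f3 27.3% and Ccnd3 0%. Over all tested genes with WT reads of known arm, the median log2 fold change was -1.82 for the 67 genes with at least 80% of 5p reads, 0.20 for the 137 with 20 to 80% and 0.88 for the 132 with less. In these classes 31, 4 and 2 genes were called lower. The WT reads enter both quantities, so this is a description.

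**Figure D3:**
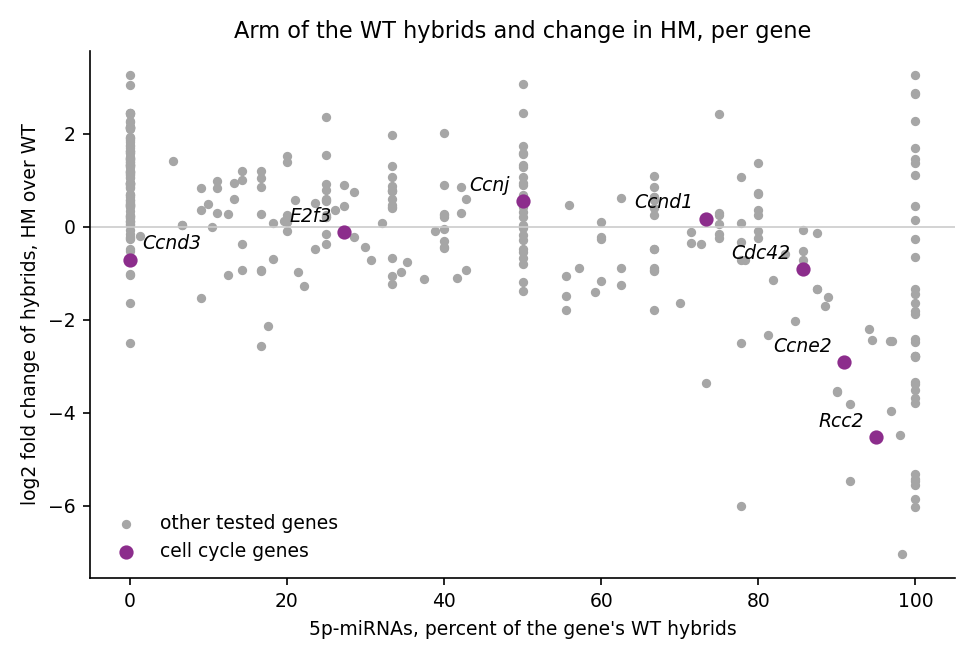
Share of a gene's WT hybrids that were with 5p-miRNAs (horizontal axis, percent) against its log2 fold change in HM over WT (vertical axis), for tested genes with WT reads of known arm. Each point is a gene, with the 7 members in purple; Rcc2 lies at 95% and -4.53, Ccne2 at 90.9% and -2.92, and Ccnd3 at 0% and -0.71.

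Summed over the members, the share of all hybrids that lay on them was 2.33, 1.67 and 1.85% in WT and 1.20, 1.18 and 1.39% in HM. WT libraries were all higher, at 1.95% ± 0.341 against 1.26% ± 0.118 (mean ± SD, n = 3, no test since it is a sum over chosen genes). Without Rcc2 the values were 1.61% ± 0.410 and 1.25% ± 0.124, so the gap between the means went from 0.69 to 0.36 points when 1 gene was left out. The libraries of the genotypes then overlapped. Of member hybrids with a known arm, 66.7% ± 2.90 in WT and 8.30% ± 5.81 in HM were with 5p-miRNAs, beside 53.7% ± 2.25 and 3.86% ± 0.229 on all other genes. Without Rcc2 the WT value was 60.1% ± 4.23. Drivers had 58 reads of 5p-miRNAs and 25 of 3p-miRNAs in WT and 8 and 74 in HM.

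The miR-17 type, which was not in the list that checked the cell type, was grouped with the miR-290 and miR-302 clusters. The 3 groups together held 72.9% ± 5.69 of member hybrids in WT and 77.4% ± 2.26 in HM, beside 77.8% and 80.1% on other genes. The difference on members was within the SD of WT, but it was 9.80 points without the members outside both roles (68.7% ± 1.96 in WT and 78.5% ± 5.01 in HM) and 8.95 points without Rcc2 (68.9% ± 7.74 and 77.8% ± 2.47). Their separate shares lay further apart. On members, the miR-302 cluster had 16.1% of hybrids in WT and 54.3% in HM (28.2% and 52.6% on other genes). The miR-290 cluster had 24.6% and 4.68% (8.90% and 5.15% on other genes), and without Rcc2 its WT value was 10.3%. Its WT reads on members were mostly of 5p strands, 22 of miR-290a-5p and 3 of miR-291a-5p, which lack the miR-302 seed. Its 3p strands with that seed had 2 WT reads of miR-294-3p and 1 of miR-291a-3p. The miR-17 type had 32.3% and 18.5% (40.7% and 22.3% on other genes). By seed, the miR-302 seed had 13 WT and 57 HM reads on members, the miR-17 seed 25 and 5, the seed of miR-25 and miR-367 16 and 22, that of miR-130 8 and 9, and that of miR-290a-5p 22 and 0. The miR-18a-5p seed had 7 WT reads and the miR-15 and miR-16 seed 6, with 0 in HM for both.

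**Figure D4:**
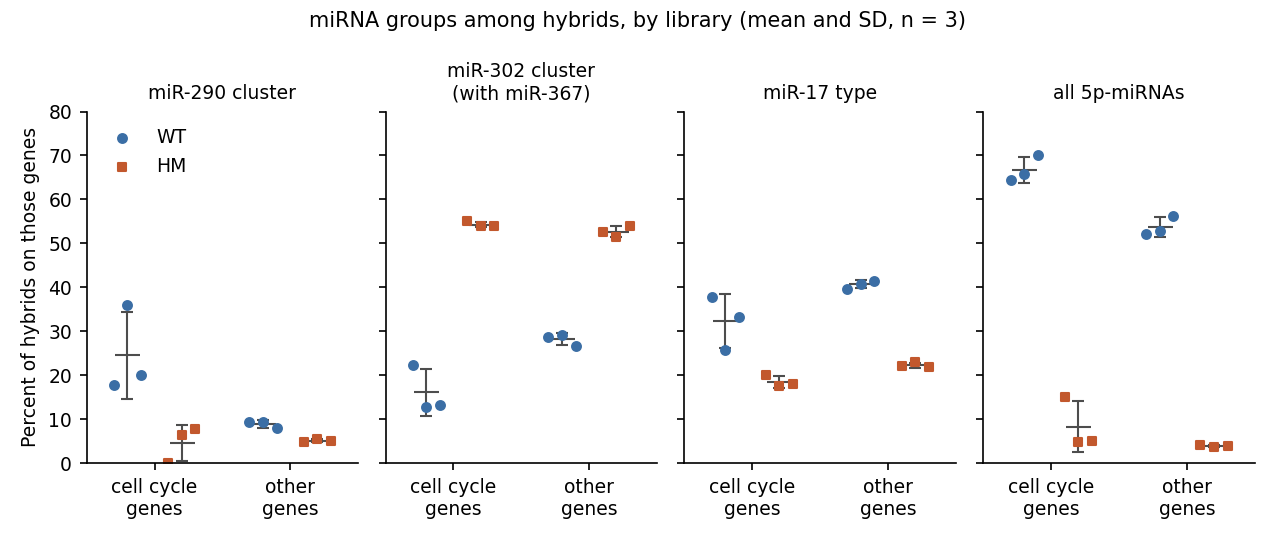
Percent of hybrids (vertical axis) from each miRNA cluster and from all 5p-miRNAs, on cell cycle genes and on other genes, for WT (circles) and HM (squares) libraries with mean ± SD. On cell cycle genes the cluster of miR-302 and miR-367 lies at 16.1% in WT and 54.3% in HM, and 5p-miRNAs at 66.7% and 8.30%.

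A match of at least 6 bases to the seed was found in 71.3% of WT and 50.6% of HM member hybrids as means over libraries, beside 66.1% and 59.2% on other genes. Without Rcc2 the member values were 65.3% and 50.3%. Matches to bases 3 to 8 alone made up 20 of 114 WT member reads, 18 of them on Rcc2 site 1, and 2 HM reads. Of 29 sites with at least 2 hybrids, 8 were seen in WT alone, 8 in HM alone and 13 in both. Sites were built for members only, so no share over all genes stands beside these counts. Most sites held few reads and the libraries differed in depth, so presence in 1 genotype is not read as a change.

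Of 118 further genes of the cell cycle (checkpoint, replication, mitosis and proliferation genes outside the symbol rule), 45 had hybrids, with 186 reads, and 5 were tested. Cdca7, a gene induced by MYC and E2F, was the 1 called: it had 2, 4 and 4 reads in WT against 1, 1 and 0 in HM, with a log2 fold change of -2.79 (edgeR adjusted p = 0.0409), and all of its WT reads of known arm were with 5p-miRNAs. This 1 of 5 stands beside 10.8% of all tested genes called lower. The call was kept in 3 of 13 alternatives and lost in 10, WT library 3 left out among them (adjusted p = 0.179), with adjusted p from 0.00145 to 0.251 (edgeR and DESeq2) and the direction kept. The 4 others were Tob2 and Btg1, antiproliferative factors, Mycn, a MYC family transcription factor, and Rad21, a cohesin subunit. Their log2 fold changes were 0.78, -0.09, -0.55 and -0.24, with the smallest adjusted p at 0.548 (edgeR).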

How the data were processed

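AGO2 CLASH hybrids were measured in 3 WT and 3 HM libraries of P19 cells, grouped by their titles. Per the methods, the authors named the miRNA part with QuagmiR, aligned the target part with Bowtie2 to 3′ UTRs of coding genes, and kept interactions predicted by TargetScan 8.0, so other fragments and miRNAs without predicted sites are not counted. Tool versions, genome build and handling of duplicates are not given in the sources used here, and no coordinates are printed. The deposited values are unscaled read counts per distinct hybrid sequence.

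Reads were summed per gene and per miRNA-gene pair. Genes and pairs with at least 10 reads were tested with edgeR 4.0.16 (R 4.3.3; glmQLFit and glmQLFTest), HM against WT, with Benjamini-Hochberg adjustment over the whole table and no covariate. Library size was all hybrids for genes and 3p hybrids for pairs, since 5p hybrids fall together. Alternatives were the other library size, TMM, DESeq2 1.42.0, other read minimums, each sequence counted 1 time, each library left out, a replicate block, and HM libraries 1 and 2 summed. Replicates were compared by a chi-square test over miRNAs: HM 1 and 2 (p = 0.747) and WT 1 and 2 (p = 0.57) did not differ beyond sampling noise, but shared at most 5.02% of whole sequences, so all were kept separate. By the same test WT library 3 differed from both other WT libraries. The titles call the libraries biological replicates and nothing says more, so p-values measure the spread between these samples.

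Named genes were members with at least 10 reads plus Rb1, Wee1, Rcc2, Lats1, Lats2, Ccnd1, Ccnd2, Cdkn1a and E2f1, the 2 leading miRNAs of each, pairs with at least 10 reads, and the 5 further cell cycle genes with most reads. Other genes named were chosen after their values were seen. Members and lists were chosen with earlier results of these data known, and roles were written from general knowledge. Fragments of a gene sharing 10 bases formed a site, shown as the stretch held by most of its fragments, up to 30 bases. Of 59 miRNAs on members, 52 had a RefSeq entry by name, and for 45 of these its first 8 bases were the same as in the hybrids. All 39 genes matched a RefSeq symbol. Ratios of summed reads carry exact 95% intervals, except those against a floor of 3 reads, which take the other count as exact. Scripts were tested on simulated data. Python 3.11.15 with pandas 2.3.3 and scipy 1.17.1 was used.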

Additional observations from a re-analysis of the deposited data

How the results depend on the processing

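Rcc2 and its pair with miR-290a-5p kept their direction and their call in each alternative that tested them, and Ccnd3 and Cdc42 kept their direction and stayed uncalled. The count of members called went from 2 to 1, Rcc2 remaining, with DESeq2, with no minimum of reads and with the replicate block. It was 1 to 2 with a library left out. With at least 20 reads 3 members were tested, Ccne2 not among them, and 1, Rcc2, was called. For Ccne2, log2 fold changes and adjusted p were -3.04 and 0.209 with DESeq2 and -2.92 and 0.156 with no minimum. With all hybrids as the scale, 2 member pairs were called, and with at least 20 reads no member pair could be tested. Left-out libraries gave 1 called member pair each.

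Over all genes the 57 calls of 344 tested became 14 of 344 with DESeq2, 23 of 3200 with no minimum and 29 of 125 with at least 20 reads. With a library left out they were 24 to 49. Over all pairs the 22 calls of 140 tested became 14 of 140 with DESeq2 and 5 of 44 with at least 20 reads. With a library left out they were 11 to 18. The 3p scale moved the median log2 fold change of tested genes from 0.27 to -0.75, so gene values are relative to that shift.

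Signs turned for Ccnd1 (-0.87 on the 3p scale, -0.34 without WT library 2), Ccnj (-0.45 on the 3p scale), E2f3 (0.015 with DESeq2, 0.18 without WT library 1, 0.51 without HM library 2) and miR-367-3p with E2f3 (0.65 with all hybrids, 0.24 with TMM, 0.28 with DESeq2, 0.58 without WT library 1, 0.06 without HM library 2). With a library left out their ranges were -0.34 to 0.90 for Ccnd1, -0.43 to 0.51 for E2f3 and -1.05 to 0.58 for the pair. None of these was called in any fit. The cause was not tested.

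Same-numbered libraries did not deviate together (correlations -0.054, -0.008 and -0.035 over 344 genes), so the numbers give no pairing. With the replicate block, 34 genes, 13 pairs and 1 member were called, Ccne2 had an adjusted p of 0.0863 and E2f3 a log2 fold change of 0.017.

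For the shares, the HM minus WT difference on members was -0.69 points of all hybrids, -1.01 with seed-matched hybrids alone and -0.36 without Rcc2, an alternative chosen after seeing the data, and it was -0.83 to -0.50 with a library left out. The difference in 5p share was -51.7 points without Rcc2 and -61.8 to -56.7 with a library left out. For the miR-290, miR-302 and miR-17 type clusters together it was 9.80 without the members outside both roles, 8.95 without Rcc2, and 1.35 to 6.91 with a library left out. For brakes it was -3.30 to 0.61 with a library left out. With 1 to 43 reads per member, depth limits what can be told: 32 of 39 members could not be tested.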
